A study of Homo sapiens with 30 samples.

Results

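The genes described here are 10 regulators of the G1 phase of the cell cycle, taken by symbol from a deposited table of 57992 genes. They are the D-type cyclins CCND1, CCND2 and CCND3, the E-type cyclins CCNE1 and CCNE2, the cyclin-dependent kinases (CDKs) CDK4, CDK6 and CDK2, and the CDK inhibitors CDKN1B (p27) and CDKN2B (p15). The study treated cells with Omomyc, a miniprotein derived from MYC that dimerizes with MYC family proteins and competes with them for DNA, and sequenced total RNA depleted of rRNA. HCT116 cells, a colon carcinoma line labelled as having stabilized MYC, were left untreated or given 2 or 10 μM of it, and were collected after 6 or 24 h. The second line, Ramos, comes from a Burkitt's lymphoma with a MYC translocation and was left untreated or given 500 nM or 2.5 μM for the same times. Each of the 10 groups had 3 replicates, and each line had 1 untreated group with no time point of its own, so the 6 h and 24 h comparisons share it. The lower HCT116 dose is that of the labels, and the study's methods give another value. HCT116 cells were treated with a protein transfection reagent, and the sources used here do not say whether untreated cells received it or whether Ramos cells did, so Omomyc and the reagent cannot be told apart. Doses differed between the lines.

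G1 is the interval in which a cell commits to replicating its DNA. D-type cyclins activate CDK4 and CDK6, E-type cyclins activate CDK2, and both kinase complexes phosphorylate the retinoblastoma protein and its relatives, which releases E2F factors and turns on the genes of DNA replication. Inhibitors of the INK4 family, such as p15, bind CDK4 and CDK6, and inhibitors of the Cip/Kip family, such as p27, bind cyclin-CDK complexes. MYC is known to raise CDK4 and cyclin D2 expression and to oppose p27 and p15, which is why this group of genes is of interest where MYC is inhibited.

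Values are RPKM (reads scaled to gene length and library size), as deposited. Log2 fold changes are on the log2(RPKM + 0.5) scale, which understates the change of genes with low values, and are followed by their standard error (SE). Adjusted p is from limma with Benjamini-Hochberg adjustment over all genes tested, and a gene was called at an adjusted p under 0.05. The labels do not say that the replicates were separate cultures, so the p-values measure only the spread between these libraries. RNA from many cells was pooled in each library, so a change in the share of cells in a phase of the cell cycle and a change in RNA per cell cannot be told apart.

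RPKM summed to between 593633 and 1051041 per library. Replicate 3 of the HCT116 10 μM 6 h group stood apart, with the highest sum, 37.2% of it in the 7SL RNA genes RN7SL1 and RN7SL2 against 17.5 and 20.3% in its replicates, and with 479 RPKM of KRT8 against 800 and 812. Changes against untreated cells of the genes named for this group are also given without that library, as are the counts of the gene lists. The 7SL share was 10.8 to 15.5% in untreated HCT116 cells and 18.4 to 22.2% after 6 h with 2 μM, and its part in the results was tested only by the rescalings given below. All 7 epithelial markers were at 10 RPKM or more in every HCT116 library and under 1 in every Ramos library. Of 7 B cell markers, 6 were at 10 RPKM or more in every Ramos library. The other, CR2 (complement receptor CD21), was at 0.0315 to 0.381 in Ramos libraries and at 1.24 to 3.42 in HCT116 libraries.

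RefSeq promoter windows on GRCh38.p14 ran from 250 bases before to 50 bases after a start site. They were searched for 6 of the 10 genes, with 9 windows in all. No window of CCND1, CCND2, CCNE2 or CDK2 was searched, so whether their promoters hold the letters below was not tested. The E box bound by MYC and MAX, CACGTG (the same on both strands), was searched for, as was an E2F site of the form TTTCCCGC, TTTGGCGC, TTTCGCGC or TTTGCCGC on either strand. The E box was in 7.26% of the 35116 windows of this kind and the E2F site in 3.31%. CDK4 held 3 E boxes, at −216 to −211, −196 to −191 and −101 to −96 from its start site, and the first of the 2 CDK6 windows held 1, at 30 to 35. The windows of CCND3, CCNE1, CDKN1B and CDKN2B held none. None of the 9 windows searched held these E2F letters, and no motif overlapped another. The windows of CDK4 and CDK6, the genes with E boxes, and of CDKN1B, which fell at 6 h in all 4 groups, are printed with E boxes in capitals. They are chr12:57752261-57752560 and chr7:92836524-92836823 on the minus strand and chr12:12717118-12717417 on the plus strand. RefSeq's starts of CDK4 and CDKN1B lie inside the genes as given by the annotation used for positions below.
CDK4: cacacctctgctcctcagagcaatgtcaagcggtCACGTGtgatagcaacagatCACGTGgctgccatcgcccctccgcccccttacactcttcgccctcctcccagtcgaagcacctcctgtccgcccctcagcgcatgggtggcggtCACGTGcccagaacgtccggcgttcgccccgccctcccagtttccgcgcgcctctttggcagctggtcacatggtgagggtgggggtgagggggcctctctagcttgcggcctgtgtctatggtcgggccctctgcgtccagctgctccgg
CDK6: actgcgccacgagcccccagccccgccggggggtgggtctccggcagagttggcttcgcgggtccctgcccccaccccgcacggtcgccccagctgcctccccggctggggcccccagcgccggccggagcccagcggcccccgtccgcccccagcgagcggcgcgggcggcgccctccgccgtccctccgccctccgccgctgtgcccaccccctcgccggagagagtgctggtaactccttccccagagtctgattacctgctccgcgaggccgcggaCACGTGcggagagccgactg
CDKN1B: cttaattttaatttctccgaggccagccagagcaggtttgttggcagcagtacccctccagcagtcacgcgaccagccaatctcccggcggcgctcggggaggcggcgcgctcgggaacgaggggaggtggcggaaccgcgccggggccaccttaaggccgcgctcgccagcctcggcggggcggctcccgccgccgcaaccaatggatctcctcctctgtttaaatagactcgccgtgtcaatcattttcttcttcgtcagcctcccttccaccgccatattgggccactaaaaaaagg
A match of letters is a description of the window and not a binding site.

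The lines differed in which D-type cyclin they expressed. CCND1 (ENSG00000110092, on GRCh38 chromosome 11 at 69641087 to 69654474, plus strand) had 132, 126 and 139 RPKM in untreated HCT116 cells and 0.022, 0.327 and 0.0919 in untreated Ramos cells. CCND3 (ENSG00000112576, chromosome 6 at 41934933 to 42050357, minus strand) had 15.1, 13.6 and 13.9 RPKM in untreated HCT116 cells and 25.9, 27.5 and 29.1 in untreated Ramos cells. The libraries of the lines did not overlap for either gene. CCND2 (ENSG00000118971, chromosome 12 at 4273772 to 4305350, plus strand) was at most 0.0194 RPKM in the 15 HCT116 libraries and at 0.0361 to 0.616 in the 15 Ramos libraries, failed the minimum mean of 0.5 RPKM in every comparison and was not tested. Of the summed RPKM of the D-type cyclins, CCND3 made up 9.70% ± 0.571 (SD, n = 3) in untreated HCT116 cells and 98.7% ± 0.579 in untreated Ramos cells.

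CDK4, CDK6, CDK2 and the inhibitors CDKN1B and CDKN2B were higher in untreated HCT116 than in untreated Ramos cells. Of the 4 other CDK inhibitors described below, 2 were called higher and 2 lower in HCT116 cells, beside 84.6% of all genes called in either direction. CDKN1B (ENSG00000111276, chromosome 12 at 12715058 to 12722371, plus strand) had 15, 16 and 16.3 RPKM in untreated HCT116 cells and 5.17, 4.39 and 4.91 in untreated Ramos cells, a difference of 1.61 (SE 0.0735, limma adjusted p = 6.87e-07). CDKN2B (ENSG00000147883, chromosome 9 at 22002903 to 22009363, minus strand) had 2.24, 2.41 and 2.01 RPKM against 0.581, 0.221 and 0.826. CDKN2B-AS1, which overlaps it on the other strand, was at 0.489 to 0.659 RPKM in untreated HCT116 cells and 1.5 to 2.59 in untreated Ramos cells. The library kit keeps strand, but whether counting used it is not stated, so low CDKN2B values are uncertain.

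CDK2 (ENSG00000123374, chromosome 12 at 55966769 to 55972784, plus strand) was higher in HCT116 cells by 0.83 (SE 0.0677, limma adjusted p = 1.69e-05) and CDK4 (ENSG00000135446, chromosome 12 at 57747727 to 57756013, minus strand) by 0.77 (SE 0.0734, adjusted p = 4.07e-05). CDK6 (ENSG00000105810, chromosome 7 at 92604921 to 92836594, minus strand) differed by only 0.20 (SE 0.062, adjusted p = 0.0197), and lost that call without untreated HCT116 replicate 1 or 3 (adjusted p = 0.065 and 0.0608). CCNE1 (ENSG00000105173, chromosome 19 at 29811898 to 29824308, plus strand) was at 17.4, 14.3 and 16.5 RPKM in untreated HCT116 and 17.2, 16 and 17.4 in untreated Ramos cells, and its difference was −0.07 with a 95% interval of −0.27 to 0.12. CCNE2 (ENSG00000175305, chromosome 8 at 94879770 to 94896678, minus strand) was at 20.8, 21.5 and 22.1 against 23.2, 23.5 and 22.9 RPKM, with a difference of −0.11 (−0.22 to −0.0048, adjusted p = 0.0506). In all, 7 of the 9 genes tested differed between the untreated lines, beside 84.6% of all genes tested in that comparison.

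**Figure D1:**
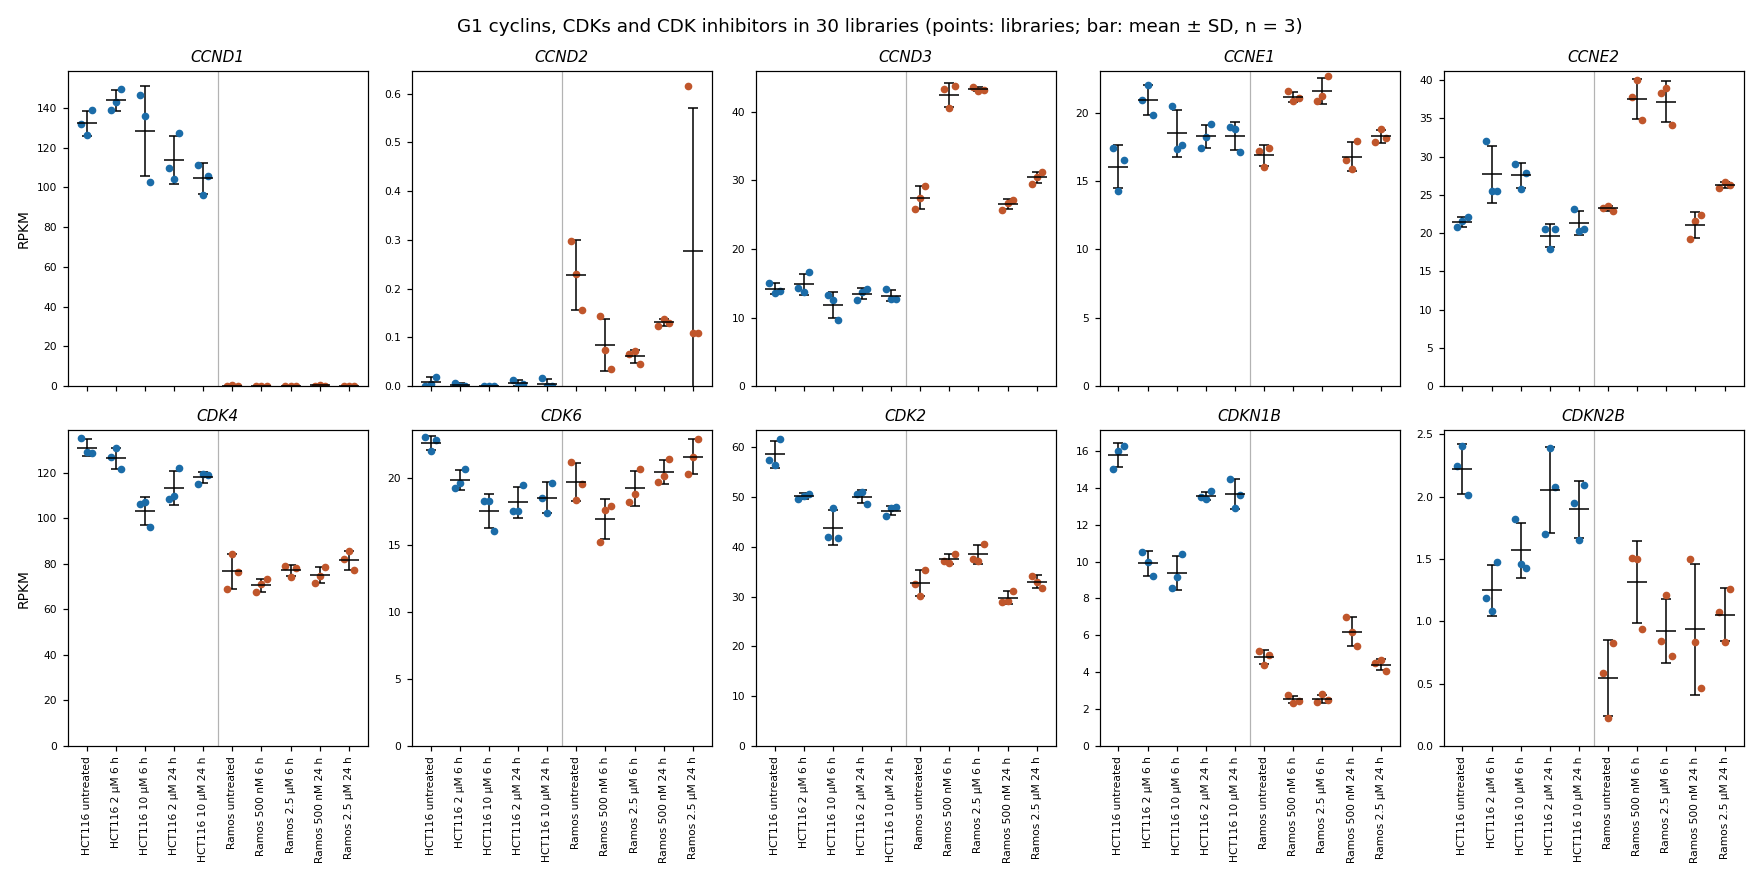
RPKM (linear axis from 0, a scale of its own per panel) of the 10 genes in the 30 libraries, HCT116 in blue and Ramos in orange. Points are libraries and bars are the mean ± SD of 3, cut at 0. CDKN1B was lowest at 6 h in both lines, CCND3 was at 40.5 to 43.7 at 6 h in Ramos cells, and CCND1 was at most 0.627 in Ramos cells.

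At 6 h CDKN1B, the gene of the p27 inhibitor, fell in both lines at both doses. In HCT116 cells it had 10.5, 9.96 and 9.2 RPKM with 2 μM and 8.58, 9.15 and 10.4 with 10 μM, all below the 15 to 16.3 of untreated libraries. CDKN1B fell by 0.65 on the log2 scale with 2 μM (SE 0.079, limma adjusted p = 0.000264) and by 0.72 with 10 μM (SE 0.108, adjusted p = 0.0036). Ramos libraries had 2.75, 2.34 and 2.46 RPKM with 500 nM and 2.39, 2.79 and 2.48 with 2.5 μM, all below the untreated range of 4.39 to 5.17. The falls were of 0.82 (SE 0.114, adjusted p = 0.00135) and 0.80 (SE 0.109, adjusted p = 0.00112). The call held in all 4 comparisons under every rescaling and with any 1 library left out, among them HCT116 10 μM 6 h replicate 3, without which the log2 change was −0.80 (adjusted p = 0.000131). The change with 2 μM in HCT116 minus that with 2.5 μM in Ramos cells was 0.15 (95% interval −0.0940 to 0.40, adjusted p = 0.301).

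By 24 h CDKN1B had risen again. It had 13.5, 13.4 and 13.8 RPKM with 2 μM and 14.5, 12.9 and 13.6 with 10 μM in HCT116 cells, between the 6 h and the untreated libraries and overlapping neither. Against untreated cells it was still lower, by 0.21 with 2 μM (adjusted p = 0.0257) and 0.20 with 10 μM (adjusted p = 0.0397). Against 6 h it was higher by 0.44 (SE 0.0807, adjusted p = 0.00333) and 0.52 (SE 0.119, adjusted p = 0.0377). The last call was lost without any of 5 libraries (adjusted p = 0.0711 to 0.181). It was also lost with no filter, median-ratio or quantile scaling, the replicate block or an equal protein-coding sum (adjusted p = 0.0756 to 0.145). The lower calls at 24 h were lost without any of 4 and any of 5 of the 6 libraries (adjusted p from 0.0529 to 0.133). Ramos cells had 7, 6.15 and 5.42 RPKM with 500 nM at 24 h, all above untreated libraries, though the change of 0.33 (SE 0.116) had a limma adjusted p of 0.839. With 2.5 μM it had 4.48, 4.66 and 4.07. From 6 to 24 h it rose by 1.15 (SE 0.117, adjusted p = 0.00017) with 500 nM and by 0.68 (SE 0.1, adjusted p = 0.00157) with 2.5 μM. In Ramos cells the order was therefore 500 nM 24 h, untreated, 2.5 μM 24 h and the 6 h groups, with overlap between untreated and 2.5 μM 24 h and between the 6 h doses.

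CDKN2B moved in opposite directions in the lines at 6 h. In HCT116 cells it had 1.19, 1.08 and 1.48 RPKM with 2 μM, below the untreated 2.01 to 2.41, a fall of 0.64 (SE 0.141, limma adjusted p = 0.00495). With 10 μM it had 1.82, 1.46 and 1.43 (log2 change −0.40, adjusted p = 0.071), and −0.35 without the library that stood apart (adjusted p = 0.0748). Ramos cells had 1.51, 1.5 and 0.939 RPKM with 500 nM against 0.221 to 0.826 untreated, higher by 0.83 (SE 0.259, adjusted p = 0.0464), a call lost without any of 5 of the 6 libraries (adjusted p = 0.0567 to 0.153) and under 6 alternatives. With 2.5 μM it had 0.845, 1.21 and 0.718 and overlapped untreated cells. The change in HCT116 cells with 2 μM minus that in Ramos cells with 2.5 μM was −1.12 (SE 0.284, adjusted p = 0.00844). CDKN2B-AS1 was at 0.375 to 0.469 RPKM in HCT116 cells with 2 μM at 6 h and at 1.66 to 2.24 in Ramos cells with 500 nM at 6 h, and its part in these values was not tested. At 24 h CDKN2B was not called in either line, with 1.65 to 2.39 RPKM in the 6 HCT116 libraries. Ramos libraries at 24 h had 0.466 to 1.5 with 500 nM, overlapping untreated ones. With 2.5 μM they had 0.83 to 1.26, all above untreated libraries (log2 change 0.61, SE 0.254, limma adjusted p = 0.207).

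The E-type cyclins, which activate CDK2, rose at 6 h in both lines. CCNE2 had 32, 25.6 and 25.5 RPKM with 2 μM and 29, 25.8 and 27.9 with 10 μM in HCT116 cells, all above the untreated 20.8 to 22.1. It had 37.8, 40 and 34.8 RPKM with 500 nM and 38.3, 39 and 34.1 with 2.5 μM in Ramos cells, where untreated libraries had 22.9 to 23.5. The rises in HCT116 cells were 0.35 at both doses (SE 0.0932 and 0.0943, limma adjusted p = 0.0126 and 0.0275), and those in Ramos cells were 0.68 and 0.66 (SE 0.061 and 0.0599, adjusted p = 0.000202 and 0.000152). The 10 μM call was lost without any 1 of the untreated libraries or replicate 1 of its own group (adjusted p = 0.0748 to 0.126) and held without replicate 3 (log2 change 0.34, adjusted p = 0.00518). Libraries rescaled to an equal RPKM sum, which moved the median of all genes from −0.12 to −0.42 with 2 μM and from −0.11 to −0.56 with 10 μM in HCT116 cells, gave CCNE2 changes of 0.02 and −0.13 there, neither called (adjusted p = 0.902 and 0.58). The 2 μM call was also lost with no filter on low values (adjusted p = 0.053). Relative to the median of all genes the main values were 0.47 at both doses. The difference between the lines at 6 h was −0.31 (SE 0.118, adjusted p = 0.052). INTS8, which overlaps CCNE2 on the other strand, was at 50.3 to 52.9 RPKM in untreated HCT116 cells and at 34 to 37.5 with 2 μM at 6 h. NDUFAF6, which also overlaps it there, was at 13.3 to 15.6 RPKM untreated, 17.2 to 19.2 with 2 μM and 15.9 to 22.5 with 10 μM at 6 h. In Ramos cells NDUFAF6 was at 22.8 to 27.7 untreated, 22.2 to 25.9 with 500 nM and 24.1 to 27.9 with 2.5 μM at 6 h. The part of these 2 genes in the CCNE2 values was not tested.

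CCNE1 had 21, 22 and 19.8 RPKM with 2 μM at 6 h in HCT116 cells, above the untreated 14.3 to 17.4, a rise of 0.37 (SE 0.0868, limma adjusted p = 0.00654) that was 0.04 with an equal RPKM sum (adjusted p = 0.771). With 10 μM it had 20.5, 17.4 and 17.6 (log2 change 0.20, adjusted p = 0.24), and the change was 0.23 without the library that stood apart (adjusted p = 0.0992). Ramos cells had 21.6, 20.8 and 21.1 RPKM with 500 nM and 20.8, 21.2 and 22.7 with 2.5 μM, above all untreated libraries, which had at most 17.4. Those rises were 0.32 (SE 0.0594, adjusted p = 0.00568) and 0.34 (SE 0.0601, adjusted p = 0.00369). The difference between the lines was 0.03 with a 95% interval of −0.20 to 0.26.

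At 24 h neither E-type cyclin was called against untreated cells in either line. CCNE2 had 20.5, 17.9 and 20.6 RPKM with 2 μM and 23.1, 20.3 and 20.5 with 10 μM in HCT116 cells. Ramos cells had 19.2, 21.6 and 22.4 with 500 nM, all below untreated libraries, and 26, 26.7 and 26.3 with 2.5 μM, all above them. CCNE1 was at 17.1 to 19.1 RPKM in the 6 HCT116 libraries and 15.9 to 18.8 in the 6 Ramos libraries. The CCNE2 doses did not overlap in Ramos cells at 24 h, and CCNE2 was higher by 0.32 with 2.5 μM than with 500 nM (SE 0.0622, limma adjusted p = 0.0254), the only one of the 10 genes called between doses. That call was lost without any 1 of the 2.5 μM libraries (adjusted p = 0.0696 to 0.106) and with no filter (adjusted p = 0.102). From 6 to 24 h CCNE2 fell by 0.48 with 2 μM in HCT116 cells (adjusted p = 0.0068), by 0.82 with 500 nM (adjusted p = 7.9e-05) and by 0.49 with 2.5 μM in Ramos cells (adjusted p = 0.000406). The HCT116 call was lost with an equal RPKM sum (log2 change −0.30, limma adjusted p = 0.0629). CCNE2 made up 57.9% ± 1.4 of E-type cyclin RPKM in untreated Ramos cells and 63.9% ± 1.74 and 63.2% ± 2.71 at 6 h with 500 nM and 2.5 μM (SD, n = 3). Neither 6 h group overlapped the untreated one, with a two-sided exact permutation p of 0.1 in both, the smallest that 3 libraries against 3 can give.

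**Figure D2:**
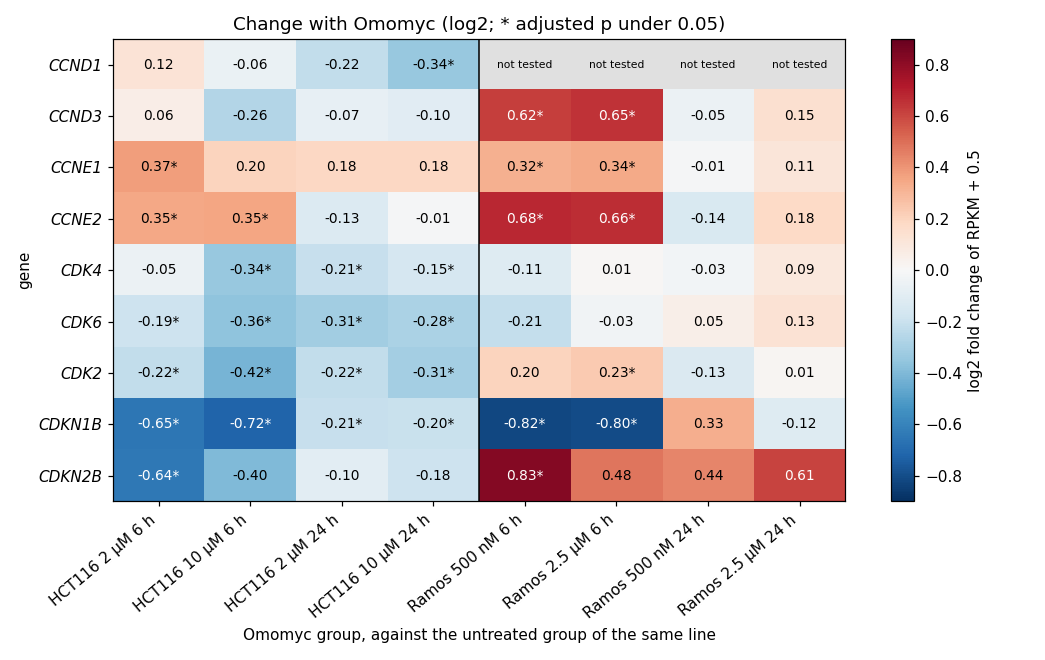
Log2 fold change (colour and printed value, log2(RPKM + 0.5) scale) of the 9 genes tested, in each Omomyc group against the untreated group of its line, with an asterisk at a limma adjusted p under 0.05. CDKN1B was lower and CCNE2 higher in all 4 groups at 6 h, and no gene was called at 24 h in Ramos cells.

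CCND3, the D-type cyclin of Ramos cells, rose at 6 h there and not in HCT116 cells. In Ramos cells it had 43.3, 40.5 and 43.7 RPKM with 500 nM and 43.6, 43.1 and 43.2 with 2.5 μM, against 25.9 to 29.1 untreated. The rises were 0.62 (SE 0.0601, limma adjusted p = 0.000262) and 0.65 (SE 0.053, adjusted p = 0.000102). In HCT116 cells it had 14.3, 13.7 and 16.6 RPKM with 2 μM (log2 change 0.06, adjusted p = 0.589) and 13.3, 12.6 and 9.7 with 10 μM (−0.26, adjusted p = 0.183), the lowest value being that of the library that stood apart, without which the change was −0.13 (adjusted p = 0.194). The change in HCT116 minus that in Ramos cells was −0.58 (SE 0.103, adjusted p = 0.00102). By 24 h CCND3 was back at 25.7, 26.7 and 27.1 RPKM with 500 nM in Ramos cells, a fall of 0.67 from 6 h (SE 0.0518, adjusted p = 4.82e-05). With 2.5 μM it was at 29.5, 30.6 and 31.2, above untreated libraries but not called (log2 change 0.15, adjusted p = 0.176), a fall of 0.50 from 6 h (adjusted p = 6.37e-05). The 6 h doses overlapped each other, and untreated cells overlapped 500 nM 24 h.

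CCND1, the D-type cyclin of HCT116 cells, was called against untreated cells only at 24 h in the main fit. With 2 μM at 6 h it had 139, 143 and 149 RPKM, above all untreated libraries but not called (log2 change 0.12, limma adjusted p = 0.144). The alternative scalings and models gave that change as −0.22 to 0.21, with adjusted p from 0.0283 to 0.651. With 10 μM at 6 h it had 146, 136 and 103 and was not called. Without the library that stood apart the 10 μM change was 0.09 (limma adjusted p = 0.252). At 24 h it had 110, 104 and 128 with 2 μM (log2 change −0.22, limma adjusted p = 0.053) and 111, 96.3 and 106 with 10 μM, all below the untreated 126 to 139. The fall with 10 μM was 0.34 (SE 0.0633, adjusted p = 0.00299). It held with any library left out and was lost with all groups of the line in one fit (adjusted p = 0.0576). Between 6 and 24 h with 2 μM it fell by 0.34 (SE 0.0841, adjusted p = 0.0116), a call lost without replicate 2 of the 24 h group (adjusted p = 0.0519). That call was also lost with an equal RPKM sum (log2 change −0.16, limma adjusted p = 0.171). The CCND3 share of D-type cyclin RPKM was 11.2% ± 0.428 with 10 μM at 24 h, above all untreated libraries (two-sided exact permutation p = 0.1). With 10 μM at 6 h it was 8.47% ± 0.148, below all untreated libraries (exact permutation p = 0.1), and 8.40% without the library that stood apart. In Ramos cells CCND1 did not pass the minimum mean and was not tested.

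The 3 CDKs fell in HCT116 cells with Omomyc, except CDK4 with 2 μM at 6 h, and in Ramos cells none was called lower. CDK2, the partner of E-type cyclins, had 57.5, 56.5 and 61.7 RPKM in untreated HCT116 cells and 49.6, 50.2 and 50.7 with 2 μM at 6 h. It had 41.9, 47.9 and 41.7 with 10 μM at 6 h, 50.6, 51 and 48.6 with 2 μM at 24 h and 46.1, 47.7 and 47.9 with 10 μM at 24 h. No treated library reached the untreated range, and the falls were 0.22 (limma adjusted p = 0.0144), 0.42 (adjusted p = 0.0194), 0.22 (adjusted p = 0.0114) and 0.31 (SE 0.0509, adjusted p = 0.00172). With median-ratio scaling the 2 at 6 h were −0.13 and −0.27 (adjusted p = 0.11 and 0.0693). The 10 μM 6 h change was −0.38 without the library that stood apart (adjusted p = 0.00349). The 2 μM calls were lost without untreated replicate 3 (adjusted p = 0.0803 and 0.0501), and the 10 μM 6 h call without any 1 of the untreated libraries or replicate 1 of its own group (adjusted p = 0.0562 to 0.102). Ramos cells had CDK2 at 37.2, 36.7 and 38.6 RPKM with 500 nM and 37.6, 37.2 and 40.6 with 2.5 μM at 6 h, above the untreated 30.1 to 35.3. It was called with 2.5 μM (0.23, SE 0.0661, adjusted p = 0.0298) and not with 500 nM (0.20, adjusted p = 0.0522). The 2.5 μM call was lost without any of 5 of the 6 libraries (adjusted p = 0.0586 to 0.107). The change in HCT116 minus that in Ramos cells at 6 h was −0.45 (SE 0.0869, adjusted p = 0.0017).

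CDK6 had 23, 22 and 22.8 RPKM in untreated HCT116 cells and between 16.1 and 20.7 in the 12 treated libraries, with no overlap. The falls were 0.19 and 0.36 at 6 h (limma adjusted p = 0.0399 and 0.0289) and 0.31 and 0.28 at 24 h (adjusted p = 0.00618 and 0.00591) with 2 and 10 μM. Median-ratio scaling gave −0.10 and −0.22 at 6 h (adjusted p = 0.226 and 0.0712). The 24 h calls held with any library left out. The 2 μM 6 h call was lost without any 1 of 5 libraries (adjusted p = 0.053 to 0.136), and the 10 μM 6 h call without any 1 of the untreated libraries (adjusted p = 0.0938 to 0.122). The latter was −0.30 without the library that stood apart (adjusted p = 0.00464). In Ramos cells CDK6 was not called, with 15.2 to 17.9 RPKM with 500 nM at 6 h, below the untreated 18.3 to 21.2 (log2 change −0.21, adjusted p = 0.0928). The change at 24 h with 2 μM in HCT116 minus that with 2.5 μM in Ramos cells was −0.44 (SE 0.0918, adjusted p = 0.00972).

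CDK4, whose window held 3 E boxes, had 135, 129 and 129 RPKM in untreated HCT116 cells and 127, 131 and 122 with 2 μM at 6 h, which overlapped. It had 106, 107 and 96.4 with 10 μM at 6 h, 108, 110 and 122 with 2 μM at 24 h and 115, 120 and 119 with 10 μM at 24 h, all below untreated libraries. The falls were 0.34 (limma adjusted p = 0.0303), 0.21 (adjusted p = 0.0209) and 0.15 (adjusted p = 0.0307), and each was lost without any of 4 of the 6 libraries (adjusted p = 0.0541 to 0.138). Without the library that stood apart the 10 μM 6 h change was −0.30 (adjusted p = 0.00239), and with median-ratio scaling it was −0.20 (adjusted p = 0.105). In Ramos cells CDK4 ranged from 67.5 to 85.5 RPKM over the 15 libraries, and its 4 log2 changes, from −0.11 to 0.09, were not called. The difference between the lines was not called at 24 h (−0.30, adjusted p = 0.0595) or at 6 h (−0.06, adjusted p = 0.613). CDK6 made up 14.7% ± 0.282 of the summed RPKM of CDK4 and CDK6 in untreated HCT116 cells and 13.6% ± 0.777 with 10 μM at 24 h, without overlap (two-sided exact permutation p = 0.1).

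**Figure D3:**
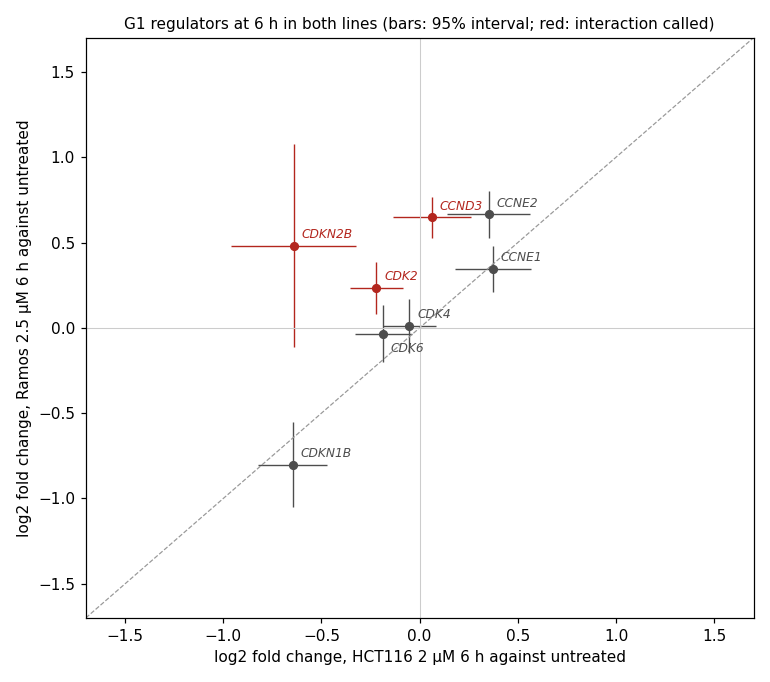
Log2 fold change at 6 h of the 8 genes tested in both lines, with 2 μM in HCT116 cells (horizontal) and 2.5 μM in Ramos cells (vertical), each with its 95% interval, and the line of equal change dashed. The 3 genes in red, CCND3, CDK2 and CDKN2B, differed between the lines at a limma adjusted p under 0.05, and CDKN1B and CCNE1 lie near the dashed line.

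Counted over the genes tested, and beside the share of all genes called, the comparisons with untreated cells were as follows. With 2 μM at 6 h in HCT116 cells, 2 of 9 were higher (15.5% of all genes) and 4 lower (31.8%). With 10 μM at 6 h, 1 was higher (8.84%) and 4 lower (21.2%). With 2 μM at 24 h, 0 were higher (16.6%) and 4 lower (10.8%), and with 10 μM at 24 h, 0 were higher (19.5%) and 5 lower (15.7%). At 6 h median-ratio scaling gave 3 higher and 2 lower with 2 μM and 2 higher and 1 lower with 10 μM. Of all genes it called 6616 of 14558 and 4526 of 14860 in either direction. An equal RPKM sum gave 0 higher and 5 and 6 lower. Of all genes it called 9250 of 14711 and 7227 of 14829 in either direction, against 6884 of 14550 and 4439 of 14785 in the main fit. The median log2 change of the 9 genes at 24 h was −0.21 with 2 μM and −0.18 with 10 μM, beside 0.04 and 0.02 for all genes.

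In Ramos cells with 500 nM at 6 h, 4 of 8 were higher (13.8% of all genes) and 1 lower (9.73%), and with 2.5 μM at 6 h, 4 were higher (17.3%) and 1 lower (10.7%). At 24 h limma called 0 of 8 with 500 nM (0.0146% of all genes higher and 0.00% lower), with 1 at an unadjusted p under 0.05. It called 0 of 8 with 2.5 μM (3.30% higher and 1.31% lower), with 3 at an unadjusted p under 0.05. After rescaling to an equal RPKM sum it called 6 higher, for which no share of all genes is given. From 6 to 24 h the calls in either direction were 4 of 9 with 2 μM (40.8% of all genes) and 1 of 9 with 10 μM (7.86%) in HCT116 cells, and 6 of 8 with 500 nM (25.4%) and 5 of 8 with 2.5 μM (23.0%) in Ramos cells. Without the HCT116 library that stood apart the count with 10 μM was 3, for which no share of all genes is given.

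Between doses limma called 0 of 9 in HCT116 cells at 6 h (0.00% of all genes), with 1 at an unadjusted p under 0.05, and 0 of 9 at 24 h (0.180%), with 0 at an unadjusted p under 0.05. In Ramos cells it called 0 of 8 at 6 h (0.429%), with 2 at an unadjusted p under 0.05, and 1 of 8 at 24 h (4.25%). The lines differed in their response for 3 of 9 genes at 6 h (40.6% of all genes), and for 2 of 9 at 24 h (16.3%), which were CCNE2 (−0.30, SE 0.0755, adjusted p = 0.0206) and CDK6. The CCNE2 call was lost without untreated HCT116 replicate 3 (adjusted p = 0.0535). Rescaling to an equal RPKM sum raised both counts to 7, for which no share of all genes is given.

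The other CDK inhibitors, examined beside the pair above, fell in HCT116 cells at 6 h, and 3 of them were called higher in Ramos cells. In HCT116 cells at 6 h all 4 of CDKN1A (p21), CDKN1C (p57), CDKN2C (p18) and CDKN2D (p19) fell at both doses, though with 2 μM median-ratio scaling left 2 calls, quantile scaling 3 and the replicate block 3. Of all genes 31.8% were lower with 2 μM and 21.2% with 10 μM at 6 h. CDKN1C fell from 4.9, 5.59 and 5 RPKM to 1.11, 1.93 and 1.78 with 2 μM and 1.69, 2.15 and 1.23 with 10 μM, by 1.45 and 1.39 (limma adjusted p = 0.000171 and 0.00198). CDKN1A, the p53 target, had 65.5, 70.9 and 74.8 RPKM untreated and 43.7, 42.7 and 37.7 with 10 μM, a fall of 0.76 (adjusted p = 0.00268). Without the library that stood apart all 4 were lower with 10 μM, beside 7565 of 14784 genes called in either direction. CDKN1C then fell by 1.23 and CDKN1A by 0.70 (adjusted p = 0.000181 and 0.000148). At 24 h CDKN1C had 4.77, 4.78 and 5.15 RPKM with 10 μM, overlapping untreated cells, and of the 4 only CDKN1A was called, with 10 μM (−0.20, adjusted p = 0.0368), a call lost with the replicate block. With 2 μM at 24 h limma called 0 of the 4, with 0 at an unadjusted p under 0.05.

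In Ramos cells CDKN2C and CDKN2D, which inhibit CDK4 and CDK6 as CDKN2B does, rose at 6 h at both doses. CDKN2D had 4.88, 5.12 and 6.43 RPKM untreated, 8.01, 9.57 and 9.37 with 500 nM and 8.88, 9.15 and 11.3 with 2.5 μM, rises of 0.67 and 0.78 (limma adjusted p = 0.0041 and 0.0025). CDKN2C rose by 0.54 and 0.50 (adjusted p = 0.00474 and 0.00602), and CDKN1A with 500 nM (0.31, adjusted p = 0.0394). Median-ratio scaling left 2 of these 3 calls with 500 nM. With 2.5 μM CDKN1A was at −0.05 (adjusted p = 0.763). CDKN1C was at most 0.0573 RPKM in Ramos cells. The difference between the lines at 6 h was −1.42 for CDKN2C (SE 0.178, adjusted p = 0.000118), −1.24 for CDKN2D (SE 0.221, adjusted p = 0.00113) and −0.24 for CDKN1A (adjusted p = 0.116).

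**Figure D4:**
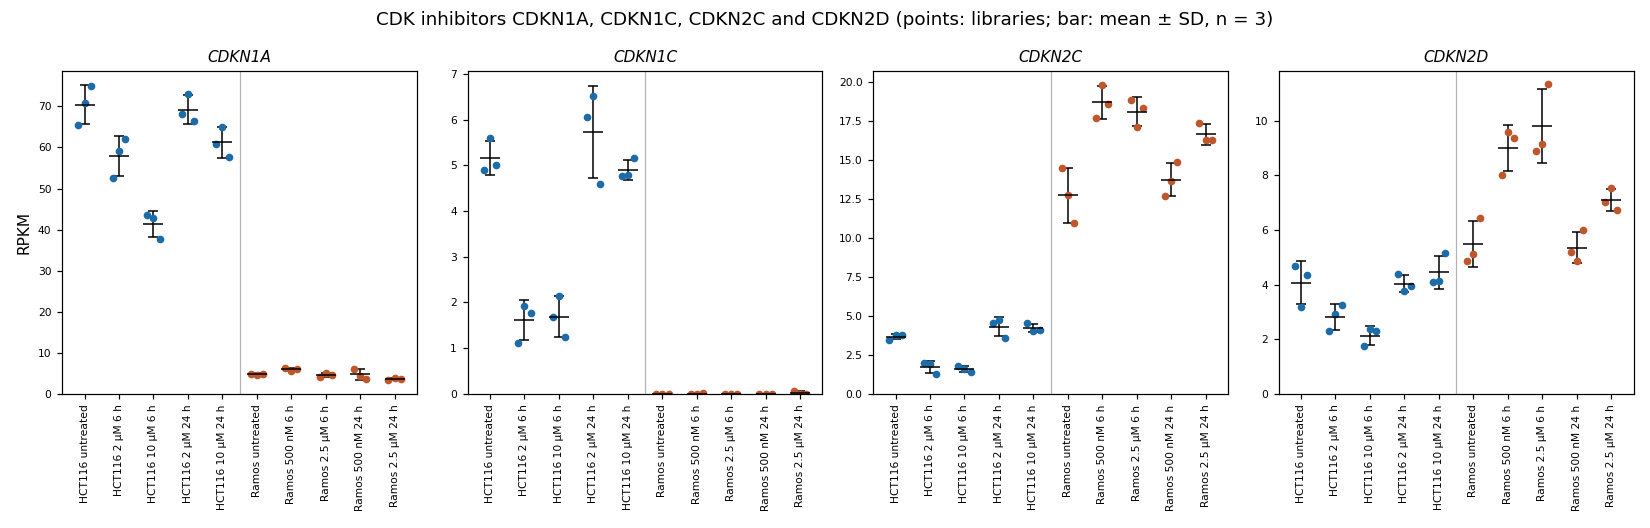
RPKM (linear axis from 0) of 4 CDK inhibitors related to CDKN1B and CDKN2B in the 30 libraries, HCT116 in blue and Ramos in orange, with bars for the mean ± SD of 3. The 6 h libraries of HCT116 cells are low for CDKN1C and CDKN2C, and the 6 h libraries of Ramos cells are high for CDKN2C and CDKN2D.

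E2F target genes, many of which act in DNA replication, were called lower more often than higher in HCT116 cells and only higher in Ramos cells. Of 20 measured in HCT116 cells, 1 was higher and 11 lower with 2 μM at 6 h, 0 and 7 with 10 μM at 6 h, 1 and 11 with 2 μM at 24 h, and 3 and 11 with 10 μM at 24 h. In the same order 15.5, 8.84, 16.6 and 19.5% of all genes were higher and 31.8, 21.2, 10.8 and 15.7% lower. Their median log2 change ran from −0.40 to −0.14, beside −0.12 to 0.04 for all genes. Without the library that stood apart 15 were lower with 10 μM at 6 h, with a median of −0.22 in place of −0.40. Calls of all genes in either direction were then 7565 of 14784, in place of 4439 of 14785. Rescaling gave 5 to 17 lower with 10 μM and 9 to 17 with 2 μM at 6 h. Calls of all genes in either direction then ran from 3831 to 7227 and from 6373 to 9250. In Ramos cells 13 were higher with 500 nM and 19 with 2.5 μM at 6 h, with medians of 0.37 and 0.42 beside 0.02 and 0.03, and none was lower. Of all genes 13.8 and 17.3% were higher and 9.73 and 10.7% lower there. Rescaling gave 12 higher with 500 nM and 12 to 20 with 2.5 μM. TYMS, thymidylate synthase, rose from a mean of 31.8 to 54.6 and 58.7 RPKM (limma adjusted p = 0.000124 and 3.95e-05). At 24 h in Ramos cells limma called 0 with 500 nM, with 0 at an unadjusted p under 0.05, and 10 higher with 2.5 μM (3.30% of all genes), a count that ran from 3 to 20 with rescaling and was 2 with the replicate block. The HCT116 change was called below the Ramos change for 18 of 20 at 6 h and 17 of 20 at 24 h, and above it for 0, with 17 to 20 and 15 to 20 under rescaling. Of all genes 40.6 and 16.3% were called in either direction in the main fit. For the rescaled and replicate block counts in Ramos cells and between the lines no share of all genes is given. Those counts therefore cannot be set against all genes.

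**Figure D5:**
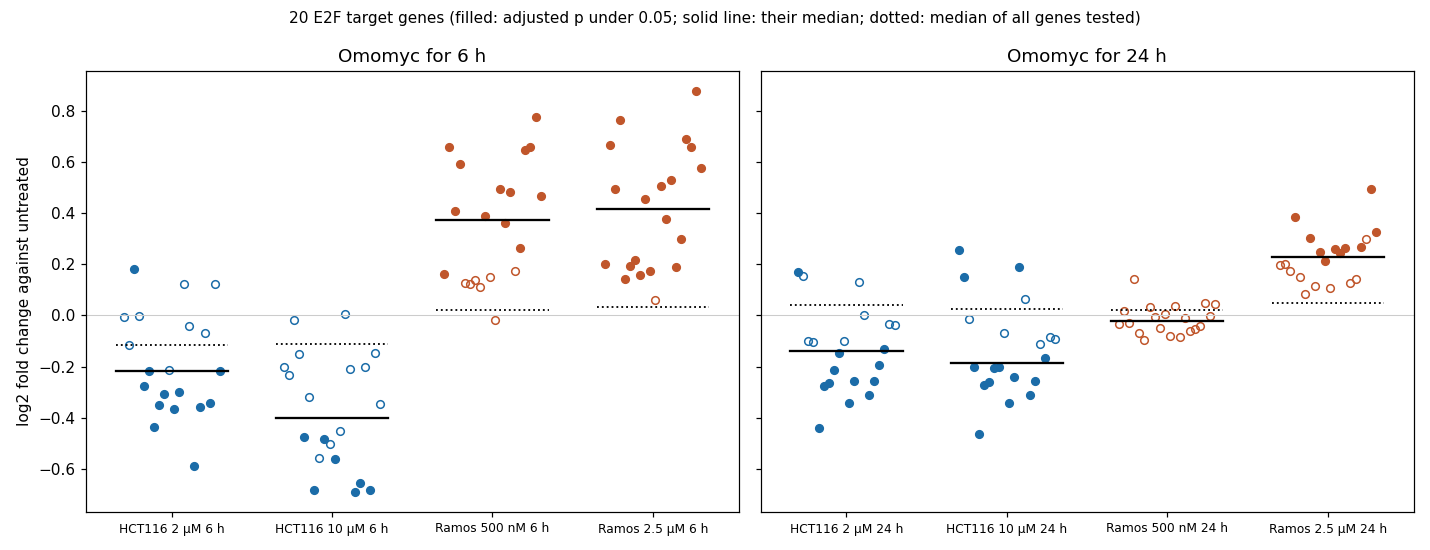
Log2 fold change against untreated cells of 20 E2F target genes at 6 h (left) and 24 h (right), filled at a limma adjusted p under 0.05, with their median as a solid line and the median of all genes dotted. Most points lie below 0 in HCT116 cells (blue) and above 0 in Ramos cells at 6 h (orange).

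Pocket proteins and E2F or DP factors act between the kinases and these targets. Of 13 in HCT116 cells, 3 were higher (15.5% of all genes) and 7 lower (31.8%) with 2 μM at 6 h. With 10 μM at 6 h 0 were higher (8.84%) and 5 lower (21.2%). Without the library that stood apart these were 3 and 6, beside 7565 of 14784 genes called in either direction. At 24 h 0 were higher (16.6%) and 6 lower (10.8%) with 2 μM, and 1 higher (19.5%) and 6 lower (15.7%) with 10 μM. Of 13 in Ramos cells, 6 were higher (13.8 and 17.3% of all genes) and 1 lower (9.73 and 10.7%) at each dose at 6 h. At 24 h limma called 0 with 500 nM, with 0 at an unadjusted p under 0.05, and 3 higher (3.30%) and 0 lower with 2.5 μM. TFDP2, a DNA-binding partner of E2F factors, fell at 6 h in both lines. The 6 h falls were 0.80 and 1.06 with 2 and 10 μM in HCT116 cells and 0.72 at both doses in Ramos cells (limma adjusted p = 0.000180, 0.00125, 0.000106 and 7.37e-05). RBL2, the pocket protein p130, fell at 6 h in HCT116 cells by 0.64 and 0.78 with 2 and 10 μM (adjusted p = 0.000201 and 0.00186). Without the library that stood apart the 10 μM falls at 6 h were 1.07 for TFDP2 and 0.76 for RBL2 (adjusted p = 0.000119 and 0.000143). E2F7, an E2F that represses transcription, rose at 6 h in Ramos cells from a mean of 5.03 to 10.5 and 9.89 RPKM (adjusted p = 0.00023 and 0.000161). It fell at 6 h with 2 μM in HCT116 cells by 0.45 (adjusted p = 0.00415).

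Of 14 genes for CDK activation and for turnover of cyclins or inhibitors, 5 were higher and 3 lower with 2 μM and 1 higher and 2 lower with 10 μM at 6 h in HCT116 cells, and 3 and 4 were higher and 2 and 2 lower at 6 h in Ramos cells. The shares of all genes called were those given for the pocket proteins. With 10 μM at 6 h 2 were higher and 5 lower without the library that stood apart, beside 7565 of 14784 genes called in either direction. At 24 h 1 was higher and 1 lower with 2 μM and 2 higher and 1 lower with 10 μM in HCT116 cells, and 0 and 1 were higher and 0 lower in Ramos cells. CDK7 is the catalytic subunit of the CDK-activating kinase. At 6 h it rose in HCT116 cells by 0.52 at both doses and fell in Ramos cells by 0.46 and 0.58 (limma adjusted p = 0.000304, 0.0195, 0.00305 and 0.000325). The CDK7 rise with 10 μM at 6 h was 0.40 without the library that stood apart (adjusted p = 0.00121). SKP2, which directs p27 to degradation, rose with 500 nM at 6 h in Ramos cells from a mean of 19 to 26.5 RPKM (0.47, limma adjusted p = 0.000555). CDC25A, a phosphatase that activates CDK2, rose with 2.5 μM in Ramos cells from 17.8 to 25.3 RPKM at 6 h and 23.4 at 24 h.

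Of the 4 S and M phase cyclins tested at 6 h in HCT116 cells, 1 was higher (15.5% of all genes) and 1 lower (31.8%) with 2 μM. With 10 μM 0 were higher (8.84%) and 2 lower (21.2%). Without the library that stood apart these were 1 and 3, beside 7565 of 14784 genes called in either direction. At 24 h 3 were higher and 0 lower at each dose, beside 16.6 and 19.5% of all genes higher and 10.8 and 15.7% lower. In Ramos cells 2 were higher and 2 lower at each dose at 6 h. Of all genes 13.8% were higher and 9.73% lower with 500 nM there, and 17.3% and 10.7% with 2.5 μM. At 24 h 0 of these cyclins were called in Ramos cells, with 0 and 2 at an unadjusted p under 0.05 in limma with 500 nM and 2.5 μM. CCNB1, a mitotic cyclin, rose with 2 μM at 6 h in HCT116 cells (0.34, adjusted p = 0.00331) and fell at 6 h in Ramos cells (−0.83 and −0.76 with 500 nM and 2.5 μM, adjusted p = 0.000124 and 3.95e-05). CCNF, the F-box cyclin, fell with 2 μM at 6 h in HCT116 cells (−0.62, adjusted p = 0.000137) and rose with 500 nM at 6 h in Ramos cells (0.24, adjusted p = 0.0205). The 22 other cyclins and CDKs had 2 higher (15.5% of all genes) and 9 lower (31.8%) with 2 μM at 6 h in HCT116 cells. With 10 μM at 6 h they had 2 higher (8.84%) and 6 lower (21.2%). Without the library that stood apart these were 5 and 10, beside 7565 of 14784 genes called in either direction. At 24 h they had 4 higher (16.6%) and 6 lower (10.8%) with 2 μM and 4 higher (19.5%) and 7 lower (15.7%) with 10 μM. Of 21 tested in Ramos cells, 2 were higher (13.8%) and 2 lower (9.73%) with 500 nM and 1 higher (17.3%) and 3 lower (10.7%) with 2.5 μM at 6 h. At 24 h 0 were called, with 1 and 3 at an unadjusted p under 0.05 in limma.

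The genes whose changes most resembled those of the 3 most variable members were found over the 8 Omomyc groups among 9090 genes, as a description, since groups of a line share their untreated libraries. For CDKN2B they were KIAA0232, PRDM11 and CPSF4 (Pearson r = 0.987, 0.986 and 0.986). For CDKN1B they were GTPBP10, MFN1 and SNUPN (r = 0.985, 0.980 and 0.971), with smaller changes than its own range of 1.15. For CCND3 they were GNA11, CABLES2 and PIP4K2C (r = 0.995, 0.993 and 0.988), and GNA11 ran from −0.20 to 0.92.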

How the data were processed

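Total RNA depleted of rRNA was sequenced from 30 libraries with a strand-specific kit, and the authors deposited RPKM for 57992 genes, 1 column per library. Per the labels the submitters' processing named RSEM, with no version. The aligner, build and annotation are not given in the sources used here, and depth is unknown, so no interval from counts is given and precision rests on the 3 replicates. Replicate correlations were 0.973 to 0.996 over 30 pairs, and 0 pairs were identical. A time tag reads 4hrs for libraries titled 24 h, and 24 h was used.

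Groups came from the labels. The model was limma 3.58.1 under R 4.3.3 (eBayes with a trend) on log2(RPKM + 0.5). Each of 19 comparisons kept genes whose RPKM averaged 0.5 or more in its libraries and used Benjamini-Hochberg adjustment over all of them. Shares were compared by two-sided exact permutation tests. Positions are from GENCODE 29 (GRCh38), joined by Ensembl identifier. The script was tested on simulated data. The 10 genes, the gene lists and the tests were chosen with earlier results of these data known. All members are described. From each other list at most 3 called genes per comparison could be named, those with the largest changes among genes averaging 2 RPKM or more whose groups did not overlap. The genes most like a member were the 3 with the highest Pearson correlation for each of the 3 members with the widest range. Outside this rule, after their values were seen, the remaining CDK inhibitor values, CR2, KRT8, INTS8, NDUFAF6 and CDKN2B-AS1 are given. The alternatives were pseudocounts of 0.1 and 1, no filter, a minimum mean of 2, median-ratio and quantile scaling, an equal RPKM sum, no trend, the replicate block, one fit over every group of a line, shares by reads rather than per length, each library left out in turn and, chosen after seeing the data, an equal sum over protein-coding genes.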

Additional observations from a re-analysis of the deposited data

Results flagged for a closer look

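The genes below differed between the lines or between 6 and 24 h by a limma test of that difference (adjusted p under 0.05).

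Between the lines, the HCT116 2 μM change minus the Ramos 2.5 μM change at 6 h was −0.58 for CCND3, −0.45 for CDK2 and −1.12 for CDKN2B. At 24 h it was −0.30 for CCNE2 and −0.44 for CDK6.

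From 6 to 24 h in HCT116 cells with 2 μM, the log2 change was −0.34 for CCND1, −0.48 for CCNE2, 0.44 for CDKN1B and 0.55 for CDKN2B, and with 10 μM it was 0.52 for CDKN1B. An equal RPKM sum gave −0.16 for CCND1 and −0.30 for CCNE2 with 2 μM, neither called (limma adjusted p = 0.171 and 0.0629). The CDKN2B change was lost without any of 4 of the 6 libraries (adjusted p = 0.0521 to 0.0932), with no filter and with quantile scaling (adjusted p = 0.0813 and 0.229). The CDKN1B change with 10 μM held without the 6 h replicate 3 that stood apart (0.60, adjusted p = 0.00332) and was lost without any of 5 libraries. It was also lost with no filter, median-ratio or quantile scaling, the replicate block or an equal protein-coding sum (adjusted p = 0.0756 to 0.145).

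In Ramos cells with 500 nM it was −0.67 for CCND3, −0.33 for CCNE1, −0.82 for CCNE2, 0.27 for CDK6, −0.33 for CDK2 and 1.15 for CDKN1B. With 2.5 μM it was −0.50 for CCND3, −0.23 for CCNE1, −0.49 for CCNE2, −0.22 for CDK2 and 0.68 for CDKN1B. The CDK6 change was lost without any of 3 libraries (adjusted p = 0.0569 to 0.0798).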

How the results depend on the processing

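Of 59 calls of single genes, 34 kept their direction and side of the threshold under every alternative scaling or model, and 39 did with any 1 library left out. The counts of genes called that moved by more than 1.5 times were as follows, given here without the share of all genes called. With 10 μM at 6 h in HCT116 cells the count of 5 was 3 with median-ratio scaling or an equal protein-coding sum and 2 with the replicate block. At 24 h it was 1 instead of 4 with 2 μM with all groups in one fit, and 3 (no trend or replicate block) or 2 (all groups in one fit) instead of 5 with 10 μM. From 6 to 24 h with 2 μM it was 7 with median-ratio scaling and 2 with an equal RPKM sum instead of 4, and with 10 μM it was 0 with no filter, the replicate block or an equal protein-coding sum and 2 with all groups in one fit instead of 1. An equal RPKM sum gave 6 instead of 0 with 2.5 μM at 24 h and 3 instead of 5 from 6 to 24 h with 2.5 μM in Ramos cells, and 7 for both differences between the lines, instead of 3 and 2. Between the Ramos doses at 24 h the count of 1 was 0 with no filter or no trend, 3 with a minimum of 2 or all groups in one fit, 2 with median-ratio scaling and 4 with an equal RPKM sum. In none of the 17 comparisons of groups did every replicate pair correlate above 0.1, so the numbers were not taken to pair libraries. With the replicate block, 3 of 19 counts moved, and 9 single calls were lost and 3 gained.

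Of the changes that turned in sign, 1 was a call (CCNE2 with 10 μM at 6 h). An equal RPKM sum gave −0.22 for CCND1 with 2 μM at 6 h, −0.28 for CCNE1 and −0.13 for CCNE2 with 10 μM at 6 h, and, from 6 to 24 h with 2 μM in HCT116 cells, 0.042 for CCND3, 0.023 for CDK4 and 0.053 for CDK6. Between the untreated lines it gave 0.49 for CCNE1 and 0.46 for CCNE2, and for CCNE1 between the lines at 6 h −0.43. Median-ratio scaling gave 0.036 for CDK4 with 2 μM at 6 h and 0.060 for its difference between the lines. The untreated CCNE1 difference was 0.0019 with an equal protein-coding sum and ran from −0.13 to 0.0058 with 1 library left out, positive without HCT116 replicate 2. The CCNE1 difference between the lines at 6 h ran from −0.049 to 0.088, and was −0.049 without untreated HCT116 replicate 2 and −0.0063 without HCT116 2 μM replicate 2. That of CDK4 ran from −0.14 to 0.0086, the latter without untreated Ramos replicate 1. The cause of none of these was tested.

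With 1 library left out, the count of genes called ran from 4 to 6 and 1 to 5 at 6 h and from 1 to 5 and 3 to 4 at 24 h in HCT116 cells (2 and 10 μM), and from 4 to 6 and 4 to 5 at 6 h and 0 at 24 h in Ramos cells. From 6 to 24 h it ran from 2 to 4 and 0 to 3 in HCT116 and 5 to 6 in Ramos cells at both doses. It was 0 to 2 between Ramos doses at 24 h, 0 between the other doses, 6 to 7 between the untreated lines, and 3 to 4 and 1 to 4 for the differences between lines at 6 and 24 h. Shares by reads moved by more than 1 SD for 25 of 30 shares. Depth is unknown, and with 3 libraries a group small changes in low genes such as CDKN2B are poorly resolved.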
